A study of Mus musculus with 60 samples.

Results

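Mast cell genes were followed in 60 skin carcinoma samples through *Tpsab1*, *Tpsb2*, *Cpa3*, *Cma1*, *Mcpt4*, *Kit* and *Gata2*. These 7 genes were taken by symbol, and every probe set carrying 1 of these symbols and no other was a member, which gave 10 of the 45101 probe sets of the array and 7 of its 18194 named genes. The carcinomas were raised on the dorsal skin of 55 FVBBX mice, the offspring of a SPRET/Ei by FVB/N hybrid crossed back to FVB/N, with the carcinogen dimethyl benzanthracene (DMBA) and the tumour promoter tetradecanoyl-phorbol acetate (TPA). All groups share this cross and this treatment. A p53 mutation label was set for 8 of 35 SCC mice, 4 of 13 spindle mice and 2 of 7 mice without histology. Females were 23, 7 and 2 of these groups. Breeding origin (F1BSF1 to F1BSF4) was given as F1BSF1 for 6, F1BSF2 for 7, F1BSF3 for 6 and F1BSF4 for 16 SCC mice. In the same order it was given for 6, 1, 4 and 2 spindle mice. Of the mice without histology, 5 were F1BSF1, 1 was F1BSF3 and 1 was F1BSF4. Coat was labelled agouti or white, both being present in each histology group, and entered no model. No normal skin and no papilloma was analysed here, and the ages of the mice were not given in the sources used here.

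The labels called 38 tumour samples of 35 mice squamous cell carcinoma (SCC) and 14 samples from 13 mice spindle carcinoma, and gave no histology for 8 samples from 7 mice. Of the SCC mice, 13 carried well, 13 moderately and 9 poorly differentiated tumours. Lymph nodes were labelled positive in 15 mice and negative in 19, with no label for 21. By papilloma number at 20 weeks, 17 mice with under 2 papillomas were classed as resistant and 16 with over 7 as sensitive. The 5 mice with 2 tumour samples entered as the mean of both, so the mouse was the replicate. In 2 of these pairs (SCC 3 and SCC 4, no histology 6 and no histology 7) the titles share a tumour number, so that they may be samples of 1 carcinoma. Values are log2 expression, so a difference of 1 is a doubling, and they are relative to the whole array.

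Mast cells are tissue-resident immune cells of haematopoietic origin that mature in the skin under KIT ligand. They store proteases in cytoplasmic granules, bound to the proteoglycan serglycin, and release them when the high-affinity IgE receptor or other receptors are engaged. In mouse skin the connective tissue type of mast cell holds tryptases, chymases and carboxypeptidase A together, and mast cells are well known residents of the stroma of DMBA/TPA tumours. RNA was extracted from whole tumours, so fewer mast cells and less RNA per mast cell cannot be told apart.

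Of the members, *Tpsab1* encodes the tryptase mMCP-7 and *Tpsb2* the tryptase mMCP-6, *Cma1* encodes the chymase mMCP-5, *Mcpt4* the chymase mMCP-4 and *Cpa3* mast cell carboxypeptidase A. *Kit* encodes the receptor for KIT ligand, which melanocytes and some other cells also carry. *Gata2* encodes a transcription factor of mast cells, blood progenitors and endothelium. On GRCm38.p6 the tryptase genes neighbour each other (*Tpsab1* chr17:25343245-25345562, *Tpsb2* chr17:25366308-25368096), and both chymase genes lie on chromosome 14 (*Cma1* chr14:55941451-55944675, *Mcpt4* chr14:56059744-56062310). *Cpa3* lies at chr3:20215616-20242209, *Kit* at chr5:75574987-75656722 and *Gata2* at chr6:88193891-88207032. The tryptases are close relatives, and cross-hybridisation between their probe sets was not tested.

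Because the protease genes moved together across tumours, the promoters on hand for them are shown: *Cpa3*, *Cma1* and *Mcpt4*, from RefSeq (GRCm38.p6), 250 bases before to 50 bases after the annotated start, read along the gene, which is on the minus strand for each. Capitals mark GATA-factor motifs, searched on both strands as the letters AGATAA, as AGATAG, as TGATAA and as TGATAG. The windows are chr3:20242132-20242431 for *Cpa3*, chr14:55944626-55944925 for *Cma1* and chr14:56062261-56062560 for *Mcpt4*.
Cpa3 promoter: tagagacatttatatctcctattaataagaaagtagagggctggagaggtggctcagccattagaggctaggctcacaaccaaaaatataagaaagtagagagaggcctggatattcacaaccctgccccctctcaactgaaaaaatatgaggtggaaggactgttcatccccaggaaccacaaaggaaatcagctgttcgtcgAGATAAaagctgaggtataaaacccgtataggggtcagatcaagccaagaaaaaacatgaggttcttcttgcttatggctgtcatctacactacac
Cma1 promoter: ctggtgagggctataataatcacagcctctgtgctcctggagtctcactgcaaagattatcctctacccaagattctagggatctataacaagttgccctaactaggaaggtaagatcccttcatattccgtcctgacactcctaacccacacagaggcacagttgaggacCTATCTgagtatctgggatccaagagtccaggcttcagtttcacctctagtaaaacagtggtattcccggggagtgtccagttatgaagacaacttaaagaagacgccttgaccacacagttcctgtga
Mcpt4 promoter: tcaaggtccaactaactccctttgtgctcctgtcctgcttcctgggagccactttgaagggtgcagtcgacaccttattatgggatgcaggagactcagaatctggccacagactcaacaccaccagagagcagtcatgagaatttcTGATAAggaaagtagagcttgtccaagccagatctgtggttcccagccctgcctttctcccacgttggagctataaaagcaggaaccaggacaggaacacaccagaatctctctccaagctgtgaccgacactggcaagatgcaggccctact

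A GATA motif stood in the promoter of 3 of the 5 member genes with an entry (*Cpa3* at -46, *Cma1* at -79 and *Mcpt4* at -103, with 0 at the start site). Counted by promoter this was 3 of 7, beside 29.8% of all 32851 promoters of this length. The entries of *Kit* and *Gata2* held none of these letters. TATAAA stood at -31 in *Cpa3*, which also held it on the other strand at -242, and at -32 in *Mcpt4*. On either strand 13.6% of all promoters held it. The E-box CANNTG was found in 4 of the 5 genes (5 of their 7 promoters) and in 72.3% of all promoters. Its forms CATGTG and CACGTG, which MITF binds, were in none of the 5 and in 20.4% of all promoters. *Tpsab1* and *Tpsb2* are named only.

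Of the 10 member probe sets, 8 were kept, each exceeding the median of its array on 8 or more arrays. The set 1451802_at of *Tpsb2* exceeded the median on 0 arrays and 1415900_a_at of *Kit* on 7. Each gene was read by its brightest set: *Tpsab1* 1426175_a_at, *Tpsb2* 1422180_a_at, *Cpa3* 1448730_at, *Cma1* 1449456_a_at, *Mcpt4* 1425967_a_at, *Kit* 1452514_a_at and *Gata2* 1450333_a_at. All 7 genes passed, *Kit* with 54 arrays above the median and the others with 59 or 60. The second kept set of *Gata2*, 1428816_a_at, correlated with the first over 55 mice (r = 0.878), whereas the dim sets of *Kit* and *Tpsb2* followed their brighter partners less closely (r = 0.552 and r = 0.40).

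Some arrays stood apart. The levels of sex-specific genes did not match the sex label on 12 arrays (7 SCC, 3 spindle, 2 without histology). Among tumours of different mice, SCC 21 resembled SCC 22 (r = 0.889 of gene-centred values) and SCC 24 resembled spindle 14 (r = 0.787). SCC 24 was labelled well differentiated, yet its mean over 8 epithelial genes (4.36) was the lowest of all 55 mice, below that of spindle 14 (4.95). The largest differences between 3′ and 5′ *Gapdh* sets, a sign of RNA quality, were those of SCC 6 (1.845), SCC 36 (0.595) and spindle 9 (0.543). Only SCC 6 stood well apart, since SCC 22 followed at 0.481, and no limit of quality was applied. Each result that rests on these arrays is given without them where its call or direction changed.

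*Tpsab1* spanned the widest range of the 7 genes over mice, from 5.39 (spindle 5) through a median of 7.16 to 10.84 (spindle 10). *Cma1* ran from 4.80 (SCC 20) to 9.26 (SCC 3 and SCC 4, 1 mouse), *Cpa3* from 5.56 (no histology 1) to 9.88 (the same SCC mouse) and *Mcpt4* from 5.36 (spindle 2) to 9.17 (spindle 12). *Tpsb2* ran from 5.51 (SCC 11) to 9.06 (spindle 4). Averaged over the 5 protease genes, the highest mice were spindle 4, spindle 3, spindle 10, the mouse of SCC 3 and SCC 4, and spindle 12 (means of 8.80 to 9.20). The lowest mean, 5.54, was that of SCC 20. *Kit* was narrower, from 4.02 (SCC 11) to 6.49 (spindle 3), and *Gata2* ran from 5.22 (SCC 11) to 8.90 (spindle 7). Spindle 7 had the lowest *Kit* value of all spindle mice (4.21) beside the highest *Gata2*, so these genes could part within 1 tumour.

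**Figure D1:**
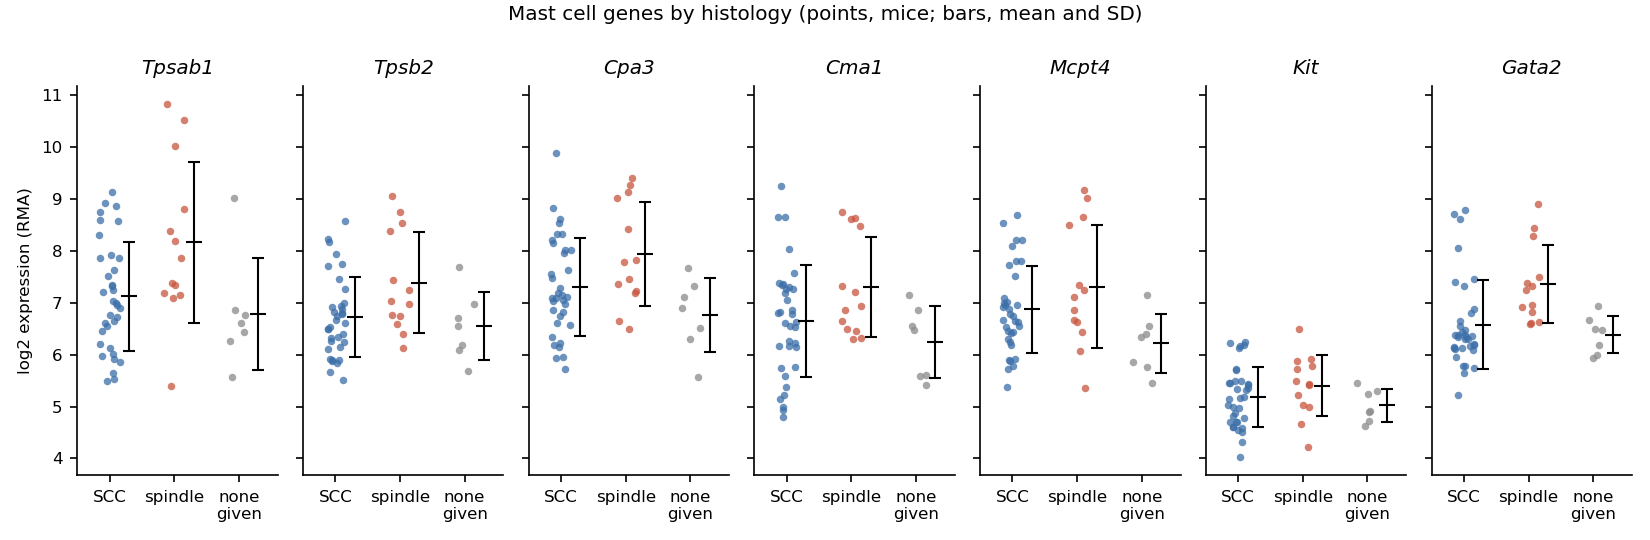
Log2 expression (vertical axis) of each mast cell gene in every mouse, grouped as SCC (35 mice), spindle (13) and no histology given (7). Points are mice and black bars are the mean with its SD. All groups overlap for each gene, *Tpsab1* reaches 10.84 in spindle 10, and no spindle mouse lies below 6.59 for *Gata2*.

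The comparison of spindle carcinoma with SCC asks how the mast cell genes follow histology. *Tpsab1* and *Gata2* were higher in spindle carcinoma, and the remaining members had positive differences that did not pass the test. In SCC *Tpsab1* ran from 5.49 through a median of 6.99 to 9.14, and in spindle carcinoma from 5.39 through 7.87 to 10.84. The groups overlapped, but 12 of 13 spindle mice lay above the SCC median. Means were 7.13 ± 1.05 (SD, n = 35) and 8.17 ± 1.55 (SD, n = 13), a difference of 1.04 (SE 0.38, limma, adjusted p = 0.0363), or 2.05-fold.

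*Gata2* ran from 5.22 through 6.35 to 8.79 in SCC and from 6.59 through 7.25 to 8.90 in spindle carcinoma. Every spindle mouse (13 of 13) lay above the SCC median. The difference was 0.78 (SE 0.26, limma, adjusted p = 0.0235), and the second *Gata2* set gave 0.47 (SE 0.16). The call for *Gata2* was lost without spindle 3 (adjusted p = 0.0561), spindle 7 (0.0661) or spindle 12 (0.0531). That for *Tpsab1* was lost without spindle 3 (0.0984), spindle 4 (0.0881), spindle 10 (0.105), spindle 12 (0.0626) or spindle 14 (0.0537), and with every tumour sample entered and the mouse as a random effect (0.0632).

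*Tpsb2*, the neighbour of *Tpsab1*, missed the threshold (difference 0.67, SE 0.26, adjusted p = 0.0514), with spindle medians of 7.04 against 6.61 and 10 of 13 spindle mice above the SCC median. It was called without the arrays of mismatched sex (adjusted p = 0.0451), the 3 of largest *Gapdh* difference (0.0277) or the 4 similar arrays (0.0193), and in 14 of the 48 fits that left out 1 mouse. *Cma1* differed by 0.67 (SE 0.33, adjusted p = 0.133) and *Cpa3* by 0.64 (SE 0.31, adjusted p = 0.117). For *Mcpt4* the difference was 0.44 (95% interval -0.16 to 1.04) and for *Kit* 0.22 (-0.15 to 0.59). The interval of *Mcpt4* ends close to the difference seen for *Tpsab1*. In limma 2 of 7 members were called, beside 26.5% of all 12791 genes tested (3391, of which 1985 were higher), so the share called was near the background. The median difference of the 7 members was 0.67, that of all genes 0.025.

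With the label for origin (4 breeding origins, spread unevenly over histology) in the model, neither call held (adjusted p = 0.0551 for *Tpsab1*, 0.0503 for *Gata2*), although the differences stayed at 1.05 and 0.76. Against the 9 poorly differentiated SCC mice alone the differences were 1.05 and 0.95, and neither passed (adjusted p = 0.345 and 0.147). That fit called 0 of all 12791 genes, whereas the fit with origin called 3227. Other cells moved with histology. All 8 epithelial genes were lower in spindle carcinoma (median difference -2.13), their mean running from 4.36 to 11.21 in SCC and from 4.95 to 11.02 in spindle carcinoma. Of 8 macrophage genes 2 were higher (*C1qa* 0.75, *C1qc* 0.83), and of 6 neutrophil genes tested 4 were lower. Of 8 fibroblast genes *Pdgfra* (1.69) and *Dcn* (1.17) were higher and *Fbln1* (-1.10) and *Thy1* (-0.83) lower, and *Pdgfra* and *Dcn* also followed the mean of the 5 proteases (r = 0.665 and r = 0.608). Of 3 adipocyte genes tested *Fabp4* (-1.57) and *Lipe* (-0.86) were lower. Their part in the mast cell differences was not tested. A further label, tumour class, was also spread unevenly over histology and entered no model.

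Other genes of the mast cell were read from lists by role. Of 5 receptor genes tested (7 on the array, 10 listed), *Il3ra*, a subunit of the interleukin 3 receptor, was higher in spindle carcinoma (0.50, SE 0.13, adjusted p = 0.00373). *Fcer1a*, the IgE-binding chain of the high-affinity IgE receptor, differed by 0.52 (SE 0.36, adjusted p = 0.301) and its partner *Ms4a2* by 0.06. Of 11 granule and mediator genes tested, *Ndst2*, which sulphates heparin, was higher (0.33, adjusted p = 0.00991) and *Rab27b*, a GTPase of granule release, was lower (-0.87, adjusted p = 0.00287). Across mice the 13 genes of this list on the array had r from -0.43 (*Rab27b*) to 0.553 (*Ndst2*) with the mean of the 5 proteases, 11 of them above 0, *Hdc*, the histamine-forming enzyme, had r = -0.05, and the mean of the list had r = 0.417. Of 7 transcription factor genes tested, *Mitf* (0.79, adjusted p = 0.023) and *Zeb2* (0.70, adjusted p = 0.0288) were higher, and of 5 growth factor genes none passed, *Kitl* (KIT ligand) differing by -0.04 (SE 0.20). *Mrgprb1*, *Adora3* and *Slc18a2* did not exceed the array median on any array.

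**Figure D2:**
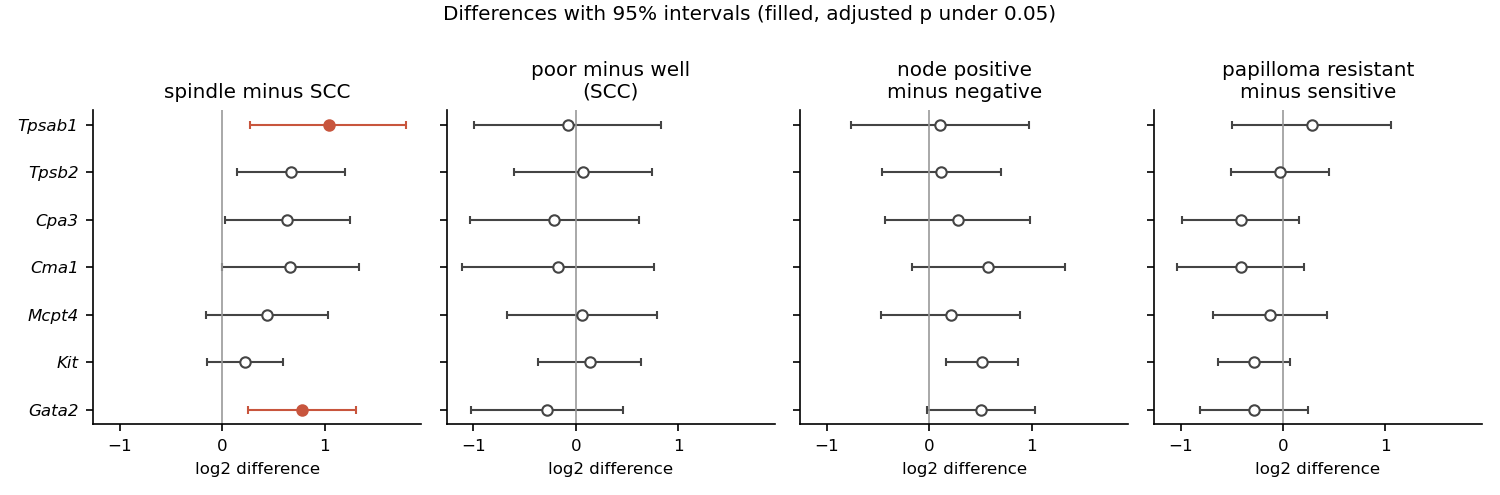
Log2 differences (horizontal axis) of the 7 mast cell genes with 95% intervals in 4 comparisons. Filled points are those with an adjusted p under 0.05, which are *Tpsab1* (1.04) and *Gata2* (0.78) in spindle minus SCC. In the other panels no gene was called, and *Kit* (0.52, node positive minus negative) is the one interval there that lies wholly above 0.

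Grade of differentiation gave no call. *Tpsab1* averaged 7.20 ± 1.06 (SD, n = 13) in well, 7.07 ± 0.99 (n = 13) in moderately and 7.12 ± 1.22 (n = 9) in poorly differentiated SCC, and *Cma1* averaged 6.77, 6.55 and 6.59. *Gata2* averaged 6.69, 6.58 and 6.41. Its SD was 1.20 in well and 0.41 in poorly differentiated SCC, since *Gata2* ran from 5.22 to 8.79 in the former and from 6.09 to 7.41 in the latter. Poorly and well differentiated SCC overlapped for every member. The largest difference of poor minus well was -0.28 (*Gata2*, 95% interval -1.03 to 0.46), and the interval of *Cma1*, the widest, was -1.12 to 0.76. Limma called 0% of 12791 genes for poor minus well (687 at an unadjusted p under 0.05), 0% for moderate minus well (318) and 0% for poor minus moderate (1089), and none of the 7 members. The SAM-type statistic called 0 genes for poor minus well as well.

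The node label asks whether mast cell genes differed with spread to lymph nodes. *Kit* was the member nearest to a difference. It ran from 4.70 through 5.44 to 6.24 in node positive and from 4.02 through 5.19 to 5.87 in node negative mice. The groups overlapped, and 11 of 15 positive mice lay above the negative median. The difference of 0.52 (SE 0.17) had an unadjusted p of 0.00522 in limma and rank 37 of 12791 genes, and did not pass adjustment (adjusted p = 0.932). With the mean of both *Kit* probe sets it was 0.30. Endothelial genes leaned the same way, 8 of 8 above 0 with a median difference of 0.36 and none called, and in SCC their mean ran from 5.83 to 7.99 in node positive and from 5.81 to 7.06 in node negative mice. Their part in the *Kit* value was not tested. *Cma1* differed by 0.58 (95% interval -0.17 to 1.32) and *Gata2* by 0.50 (-0.02 to 1.03). The second kept *Gata2* set gave 0.149 (SE 0.157). The tryptases *Tpsab1* and *Tpsb2* differed by 0.10 and 0.12, and by -0.05 and -0.01 without the 4 similar arrays. In limma 0% of genes were called, with 533 at an unadjusted p under 0.05. A SAM-type statistic gave 0 calls.

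Within histology, node positive minus negative was above 0 for each protease gene in SCC and below 0 in spindle carcinoma, a pattern picked out after its values were seen that passed no adjusted test. In SCC *Cma1* ran from 6.23 through 7.32 to 9.26 in 10 node positive mice and from 4.80 through 6.19 to 7.57 in 14 node negative mice. All 10 positive mice lay above the negative median, and the difference was 1.37 (SE 0.37). *Mcpt4* and *Cpa3* were each 0.97 higher, *Gata2* 0.89, *Tpsab1* 0.76, *Kit* 0.71 and *Tpsb2* 0.65. In a fit of the SCC mice alone no member passed (limma, adjusted p from 0.451 to 0.551).

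In spindle carcinoma *Mcpt4* was 5.36, 6.07, 6.43 and 6.66 in the node positive mice and 6.86, 7.11, 7.24, 8.51 and 9.17 in the node negative mice. *Cma1* was 6.30, 6.33, 6.46 and 6.50 in the former and 6.93, 7.20, 7.33, 8.62 and 8.64 in the latter. Neither gene overlapped between the groups, nor did *Tpsb2* (highest positive 6.74, lowest negative 6.98). The separation rests on the mean of spindle 8 and spindle 9, the latter among the arrays of largest *Gapdh* difference. Spindle 8 alone had 6.94 for *Mcpt4*, 7.30 for *Cma1* and 7.495 for *Tpsb2*, each above the lowest node negative value. How many of all 12791 genes also separate groups this small was not counted, so the separation is a description only. These genes also varied together among spindle mice (r from 0.89 to 0.949), so they are not separate observations. *Tpsab1* and *Cpa3* did overlap, although each node positive mouse lay below the negative median. Differences were -1.65 for *Mcpt4*, -1.51 for *Tpsab1*, -1.39 for *Cpa3*, -1.35 for *Cma1* and -1.25 for *Tpsb2*, against -0.33 for *Gata2* and 0.09 for *Kit*. In a fit of the spindle mice alone no member passed (limma, adjusted p = 0.997 for each).

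The test of the difference between histologies (limma, 24 SCC and 9 spindle mice) gave -2.62 (SE 0.64, p = 0.000291) for *Mcpt4*, -2.72 (SE 0.71, p = 0.000587) for *Cma1* and -2.36 (p = 0.00191) for *Cpa3*, without adjustment in this exploratory comparison. Values were -1.90 (p = 0.00253) for *Tpsb2*, -2.27 (p = 0.0177) for *Tpsab1*, -1.22 (p = 0.033) for *Gata2* and -0.62 (p = 0.127) for *Kit*. After adjustment over all genes none passed (adjusted p from 0.652 to 0.734), and 0% of the 12791 genes were called (936 at an unadjusted p under 0.05). The difference stayed below 0 for each of the 7 genes with each of the 33 mice left out in turn, between -2.85 and -2.27 for *Mcpt4*. Without the arrays of mismatched sex, the 4 similar arrays or the 3 of largest *Gapdh* difference, it lay between -2.56 and -2.44 for *Mcpt4*. *Tpsab1* was less steady. Its difference within SCC was 0.46 without the 4 similar arrays, and within spindle carcinoma it was -0.98 without spindle 5 and -0.93 without spindle 10. *Tpsb2* within SCC was 0.43 without the 4 similar arrays. *Gata2* within spindle carcinoma was -0.06 without spindle 12 and -0.20 without the arrays of largest *Gapdh* difference. Without those of mismatched sex the unadjusted limma p of *Gata2* between histologies was 0.0698. *Kit* within spindle carcinoma, near 0, ran from -0.10 to 0.24 over these fits. Epithelial genes moved with these groups too. Their mean was 9.60 ± 2.25 (SD) in node positive and 10.70 ± 0.56 in node negative SCC, but 9.41 ± 1.43 and 8.32 ± 2.66 in spindle carcinoma. Their part in the pattern was not tested. Tumour class was spread unevenly over these groups as well. Among node negative spindle mice, spindle 10, spindle 12 and spindle 14 (class 1) had protease means of 9.16, 8.80 and 7.74. Spindle 1 and spindle 6 (class 2) had 7.27 and 7.11. Node positive spindle 11 (class 1) had 6.63. In SCC, class 1 covered node positive SCC 3, SCC 4, SCC 21 and SCC 24, but only SCC 22 among node negative mice. The part of class was not tested, so node and class were not told apart.

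**Figure D3:**
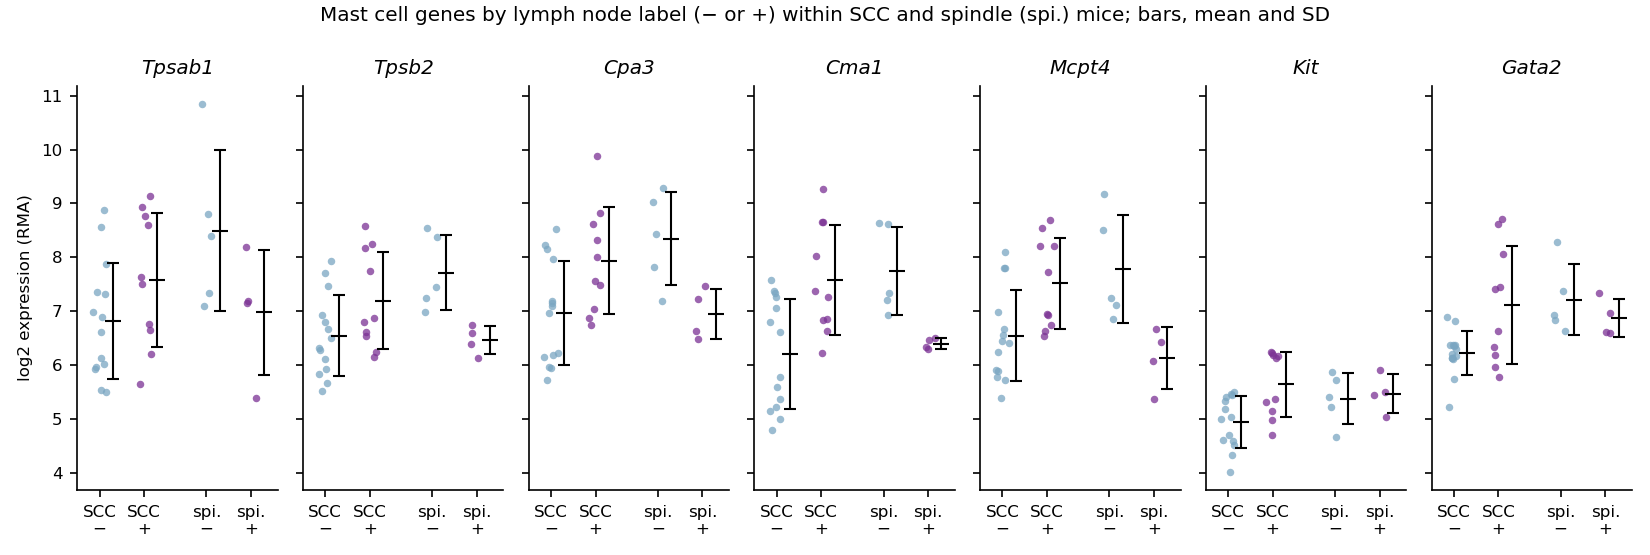
Log2 expression (vertical axis) of each gene in SCC mice with negative (−, 14) or positive (+, 10) lymph nodes and in spindle mice (spi.) with negative (5) or positive (4) nodes. Points are mice, black bars the mean and SD. Node positive mice tend to lie higher in SCC and lower in spindle carcinoma for the 5 protease genes, most clearly *Cma1* and *Mcpt4*, whereas *Kit* differs by 0.09 between the spindle groups.

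Papilloma number gave no call either. *Kit* ran from 4.21 through 5.19 to 5.72 in resistant and from 4.02 through 5.43 to 6.23 in sensitive mice, with 13 of 17 resistant mice below the sensitive median (difference -0.28, 95% interval -0.63 to 0.07). *Cpa3* and *Cma1* each differed by -0.41 (intervals -0.99 to 0.16 and -1.03 to 0.21), whereas *Tpsab1* was 0.28 higher (-0.50 to 1.06). The groups overlapped for all 7 genes. Limma called 0% of genes between resistant and sensitive mice (1055 without adjustment at the same threshold). By the SAM-type statistic 1 gene passed, which was no member. Along log2 of the papilloma number at 20 weeks 0% of genes had a slope past the threshold (817 unadjusted), and along the weeks to the first papilloma 0% (671 unadjusted, 51 mice).

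The members were next compared with each other across mice. The 5 protease genes rose and fell together. Pearson's r over 55 mice lay between 0.759 (*Tpsab1* and *Mcpt4*) and 0.925 (*Cpa3* and *Cma1*), with a median of 0.897 over the 10 pairs. Spearman's rho ran from 0.704 to 0.898. Each permutation p was 1e-05, the smallest that 100000 permutations can give, or 1.75e-05 adjusted over all 21 pairs. Leaving out, for each gene pair, the pair of mice farthest from the median of the gene listed first left r between 0.723 and 0.91.

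The protease block held within histology, with r from 0.731 to 0.925 in SCC and from 0.696 to 0.949 in spindle carcinoma, and after removal of the effects of histology, sex, origin and p53 label (0.733 to 0.912). *Kit* and *Gata2* followed the block less closely. With the proteases *Kit* gave r from 0.457 (*Tpsab1*, rho 0.396) to 0.601 (*Cma1*, rho 0.495), and *Gata2* from 0.464 (*Tpsab1*, rho 0.487) to 0.626 (*Cpa3*, rho 0.627), each with an adjusted permutation p of at most 0.000546. *Kit* and *Gata2* had r = 0.277 with each other (permutation p = 0.0403) and rho = 0.154 (p = 0.262). The r of *Kit* and *Gata2* fell to 0.144 without spindle 3 and SCC 11, the mice farthest from the *Kit* median. Within the 13 spindle mice none of the 11 pairs with *Kit* or *Gata2* passed.

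**Figure D4:**
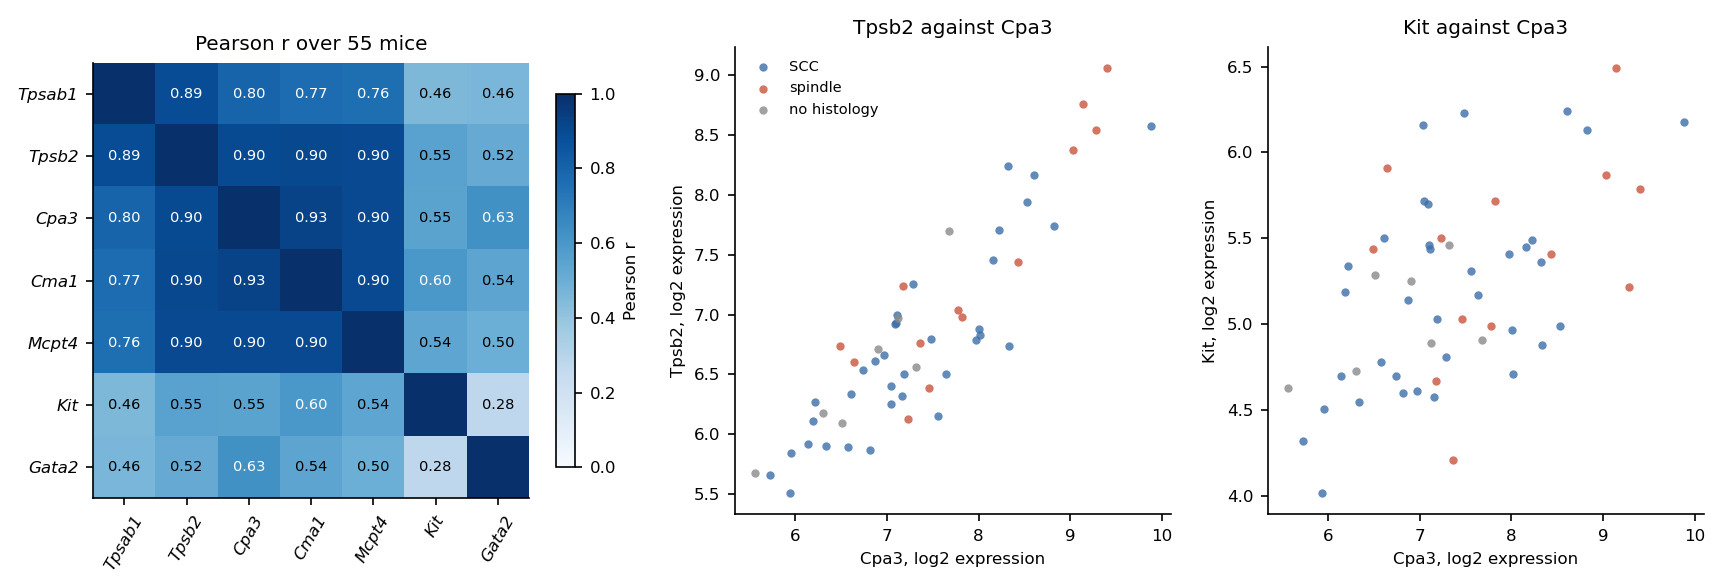
Left, Pearson's r over 55 mice for each pair of mast cell genes (colour and number). Middle and right, log2 expression of *Tpsb2* and of *Kit* against that of *Cpa3*, a point per mouse, coloured by histology. The protease genes form a block (0.76 to 0.93), *Tpsb2* follows *Cpa3* tightly (0.895), and *Kit* follows it loosely (0.547).

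Among all other genes tested, those of most similar pattern over 55 mice were ranked for each member, as a description. The nearest of *Cpa3* were *Cma1*, *Mcpt4*, *Tpsb2*, *Fcer1a* and *Tpsab1*, and the same genes surrounded *Cma1* and *Mcpt4*. *Fcer1a*, no member, was within the first 5 of every protease gene (r 0.821 to 0.894) and led all non-members for the mean of the 5 (r = 0.906). For *Tpsab1* the fourth was *Jcad* (r = 0.776), a gene of endothelial junctions. At the other end stood *Gsta4*, a glutathione transferase, and *Duoxa1*, a maturation factor of dual oxidase (r = -0.713 and r = -0.719 with *Tpsab1*).

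*Kit* had no other member among its nearest. These were *Stat5b* (r = 0.734), a signal transducer of cytokine receptors, *Tek* (0.696), the angiopoietin receptor of endothelium, *Adgrl4* (0.692) and *Calcrl* (0.667), both also known from endothelium, and *Galnt10* (0.668). *Kit* correlated with the mean of 8 endothelial genes (r = 0.59), whereas the mean of the 5 proteases had r = 0.154 with them. With the other lists *Kit* had r from -0.293 (epithelium) to 0.526 (mast cell transcription factors), with 0.52 for mast cell receptors, 0.491 for macrophage and 0.476 for fibroblast genes. Its r with the mean of 8 melanocyte genes was 0.145. Of these *Tyr*, *Tyrp1*, *Mlana* and *Mc1r* did not pass the filter, so this low r says little about melanocytes. *Gata2* was nearest to *Ntn1* (0.699), *Sema7a* (0.691), *Cdkn2c* (0.68), *Ms4a2* (0.68), the beta chain of the IgE receptor, and *Sec16b* (0.677). Toward epithelial genes the proteases ran opposite, with r from -0.491 (*Mcpt4*) to -0.617 (*Tpsab1*), and *Gata2* had r = -0.555. All of these relations share the arrays and their normalisation.

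Tumour samples of 1 mouse could differ as much as those of different mice. In SCC 7 and SCC 8 every member lay within 0.45 between the samples. In no histology 6 and no histology 7, *Tpsab1* was 9.29 and 4.44, *Cpa3* 9.35 and 4.89, and *Cma1* 8.97 and 4.75. All 7 genes were lower in the latter, by 3.42 to 4.85 for the proteases and by 1.16 for *Kit*. In spindle 8 and spindle 9 the proteases were higher in spindle 8 (*Tpsab1* 8.46 and 5.89), while *Kit* was lower (4.28 and 5.77). Over the 5 pairs the median absolute difference of *Cpa3* was 1.59, beside an SD of 0.99 over 55 mice, and that of *Tpsab1* was 0.44, beside an SD of 1.26. The labels also carry a tumour class. Class differed between SCC 22 and SCC 23, between spindle 8 and spindle 9, and between no histology 6 and no histology 7. In each of these mice all 5 protease genes were higher in the class 1 sample (SCC 22, spindle 8 and no histology 6). *Kit* was lower in SCC 22 than in SCC 23 (5.30 and 5.67) and in spindle 8 than in spindle 9. *Gata2* was lower in SCC 22 than in SCC 23 (5.92 and 6.82). Spindle 9 was among the arrays of largest *Gapdh* difference. Class was shared by SCC 7 and SCC 8 and by SCC 3 and SCC 4. With 5 pairs no test was run, and the part of class was not tested.

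**Figure D5:**
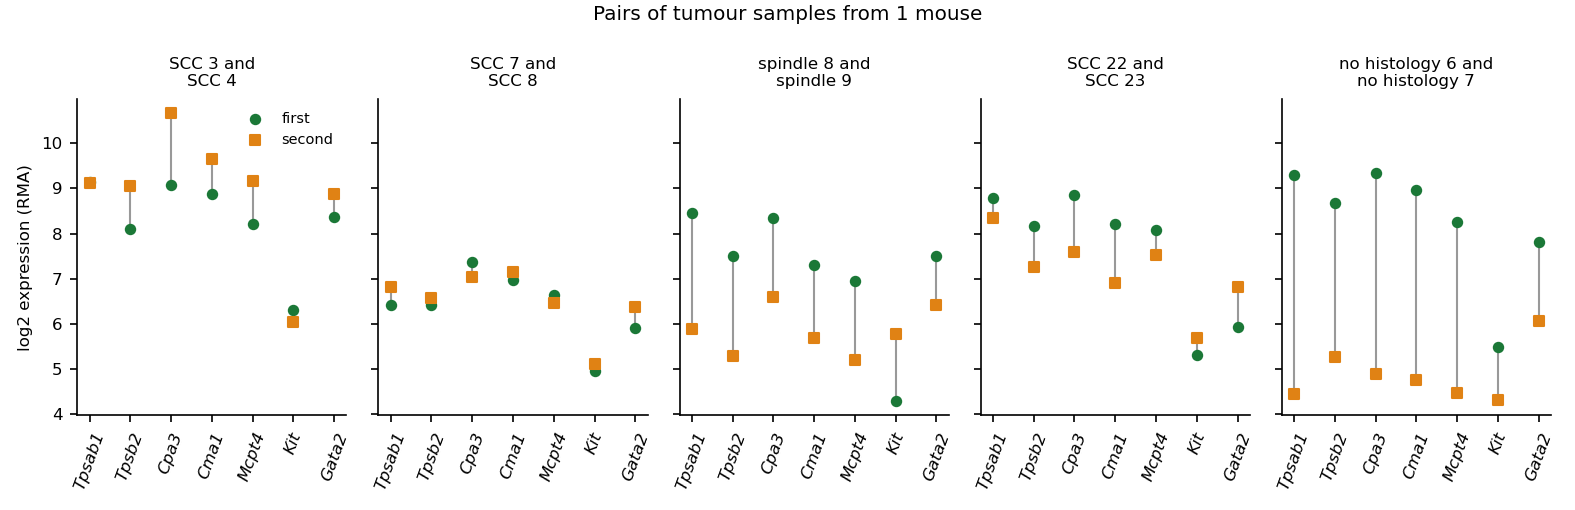
Log2 expression (vertical axis) of the 7 genes in both tumour samples of each of the 5 mice with a pair, circles for the first named sample and squares for the second, joined by a line per gene. SCC 7 and SCC 8 nearly coincide, no histology 6 and 7 differ by up to 4.85, and in spindle 8 and spindle 9 *Kit* runs against the other genes.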

How the data were processed

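Gene expression was measured in 60 carcinoma samples on Affymetrix mouse genome arrays, from Trizol-extracted, column-cleaned total RNA. The authors deposited log2 expression values made with RMA, a method of background correction, quantile normalisation across arrays and a summary over the probes of a set. The RMA version was not given in the sources used here. Such values are relative to the array, so a shift of most genes would be lost. Values ran from 1.86 to 14.33 and array medians from 4.43 to 4.56. Precision is set by the number of arrays, which carry no read depth.

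Probe sets were named by the platform annotation (34958 had 1 symbol, 932 several, 9211 none), with 34754 symbols matched in RefSeq (GRCm38.p6). The brightest set stood for a gene. Genes exceeding the median of the array on 8 or more arrays were tested (12791, or 70.3%). Samples of 1 mouse were averaged. Groups were compared with limma 3.58.1 (R 4.3.3), and a gene was called where its p, adjusted by Benjamini-Hochberg over all genes, was under 0.05, and the grades shared 1 model. P-values measure the spread between mice. Correlations were tested with 100000 permutations in Python 3.11.15, two-sided. The analysis was tested on simulated data. The named genes were the 7 members, the 5 genes nearest to each, and, of each list, members past the threshold by size. Values given for others were picked after they were seen. The members and lists were chosen with earlier results of these data known. Alternatives covered filters, probe set choice, scaling, covariates, single tumours, a SAM-type statistic and omitted arrays.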

Additional observations from a re-analysis of the deposited data

Results flagged for a closer look

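Within groups of 4 to 10 mice, 49 pairs of a gene and a group were tested for a mouse far from the others, and 3 stood out. Chance flags about 1 in 20 groups. *Tpsab1* was 9.03 in no histology 8, and the next mouse without histology had 6.86. *Gata2* was 7.41 in SCC 32, above the next poorly differentiated SCC at 6.55. *Gata2* was 8.90 in spindle 7, above the next papilloma resistant spindle mouse at 6.92.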

How the results depend on the processing

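In spindle minus SCC, 2 members were called. The number was 0 with origin as a covariate (3227 of all genes called), 0 against poorly differentiated SCC only (0 of all genes), 1 with every tumour sample entered and the mouse as a random effect (*Tpsab1* lost), and 0 to 3 with each mouse left out in turn. It was 3, with *Tpsb2* added, under the filter at 30 arrays, the mean of probe sets, sex or p53 label as a covariate, the SAM-type statistic, and without the arrays of mismatched sex, of largest *Gapdh* difference or of high similarity. Of 21 pairs of members 21 were correlated, but 10 within spindle mice. In the grade, node and papilloma comparisons 0 members were called under each alternative run. Some differences, none of them called, turned sign. For poor minus well these were *Tpsb2* with the mean of probe sets (-0.007), *Kit* without the 3 arrays of largest *Gapdh* difference (-0.004) or with origin (-0.008), *Mcpt4* without 4 similar arrays (-0.025), *Tpsab1* with origin (0.239) or p53 label (0.324), and with p53 label *Cpa3* (0.103) and *Cma1* (0.209). For the node label, *Tpsab1* and *Tpsb2* turned without the 4 similar arrays (-0.048 and -0.014). In spindle mice alone *Tpsab1* (-1.514), *Tpsb2* (-1.249), *Cpa3* (-1.390), *Cma1* (-1.350), *Mcpt4* (-1.649) and *Gata2* (-0.332) turned. For resistant minus sensitive, *Tpsb2* turned with every tumour (0.012), without arrays of mismatched sex (0.154), and with origin (0.060), p53 label (0.117) or histology (0.012), and *Mcpt4* without arrays of mismatched sex (0.022) and with origin (0.036) or p53 label (0.083). The cause was not tested.

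The planned omission of arrays of different mice with r over 0.9 could not be run, since none reached it. Leaving out the 4 arrays with r over 0.75 (SCC 21, SCC 22, SCC 24 and spindle 14), the spindle mice alone and the test of the node difference between histologies were chosen after seeing the data. No paired analysis was possible because the labels give no replicate numbers to pair groups, and both samples of a mouse share their group labels. Those shared labels are histology, grade, node and papilloma number. The numbers used here only name tumours in accession order. The 13 spindle mice, of which 9 have a node label, limit the precision.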
